A study of Mus musculus with 6 samples.

Results

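The mitochondrial ribosomal protein genes were followed by RNA-seq in a mouse mammary carcinoma line, 4T-1. They were taken by name, as the protein-coding genes of GENCODE release M21 on GRCm38 whose symbol begins with Mrpl or Mrps and a digit. This gave 78 of the 55487 rows of the count table, 49 named for the large subunit and 29 for the small subunit. The 6 libraries comprised 3 of wild-type cells and 3 of cells with a knockout of Lyplal1, and neither group was treated. Lyplal1 belongs to the acyl-protein thioesterases and their relatives, and the series title ties it to the removal of palmitate from the DNA sensor cGAS. The sample descriptions carry the codes NC for wild type and sg2 for knockout, which no label explains. The labels do not state how the gene was disrupted, whether the knockout cells came from a clone or a pool, or whether the libraries of a group came from separate cultures. The p-values below therefore measure only the spread between these libraries, which may be technical.

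The mitochondrial ribosome translates the messages of mitochondrial DNA, which encode core subunits of the respiratory chain and ATP synthase. Its RNAs are transcribed from mitochondrial DNA, whereas its proteins are encoded in the nucleus, made in the cytosol and imported. A core of these proteins descends from the bacterial ribosome, and a shell of others is found only in mitochondria. Gene symbols keep the subunit in which a protein was first placed, and structures of the mammalian ribosome later moved Mrps30 and Mrps18a to the large subunit. Mrps36 is now assigned to the 2-oxoglutarate dehydrogenase complex.

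Total counts ran from 16731209 to 17108975 per library. Lyplal1 itself gave 76, 73 and 68 counts among wild-type libraries against 54, 48 and 58 counts among knockout libraries. Its level was 4.05 ± 0.212 CPM (wild type) and 3.34 ± 0.328 CPM (knockout) (CPM, counts scaled to TMM-adjusted library sizes, mean ± SD, n = 3), and the difference did not pass the test (log2 fold change -0.28 ± 0.15 SE, adjusted p = 0.0886 by edgeR's quasi-likelihood test). RNA counted over the whole gene does not check the genotype. The 7 epithelial markers of the line were all detected and summed to 3910 to 4030 CPM (wild type) and 3070 to 3080 CPM (knockout). They did not move as 1 group, since Krt19, Epcam and Krt18 were 3.87-, 3.01- and 2.72-fold lower in knockout, Krt8, Cdh1 and Cldn7 were lower by less, and Krt7 was 1.68-fold higher (adjusted p at most 0.0133, edgeR). The 5 lung epithelium markers summed to 0.112 to 0.223 CPM (wild type) and 38.1 to 148 CPM (knockout), highest in knockout replicate 3, where Scgb1a1, a club cell marker, reached 1085 counts. The 7 leukocyte markers summed to 8.29 to 8.59 and 443 to 499 CPM, nearly all of it Cd68, and the others did not move together. The pan-leukocyte gene Ptprc had 14 counts over the wild-type and 7 over the knockout libraries. Lyz2, a lysozyme of myeloid cells and lung, gave 28, 45 and 263 counts among knockout libraries against a wild-type total of 1 (adjusted p = 0.0449, edgeR), and the myeloid markers Adgre1 and Itgam had 0 over the wild-type and 8 and 4 over the knockout libraries. The 5 fibroblast markers summed to 67.2 to 69.9 and 168 to 180 CPM, nearly all of it Pdgfra (64.6 and 169.7 CPM on average), while Col1a1 was 2.65-fold lower (adjusted p = 3.66e-05, edgeR). Col3a1 went from 1 count over the wild-type to 73 over the knockout libraries, 64 of them in replicate 3, and Dcn from 8 to 21, 16 in replicate 3, and both were removed by the filter. The 4 endothelial markers summed to 0.168 to 0.223 and 1.06 to 6.48 CPM. Within a group, pairs of libraries differed by a chi-square per gene of 1.41 to 1.87 in wild type and 1.75 between knockout replicates 1 and 2, against 3.35 and 3.57 for the pairs with knockout replicate 3, which stood apart. Whether these markers came from other cells or from a change in the line was not tested, nor was any part of such RNA in the results below. The counts by subunit, ancestry, size of change, overlap, neighbour and companion list are given with and without knockout replicate 3.

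Most mitochondrial ribosomal protein genes were higher in the knockout libraries, in both subunits and by moderate amounts. Of the 78 genes, 77 passed the filter on low counts, which kept 13022 genes of the whole table. Of these 77, 66 were higher in knockout, 5 were lower and 6 were not called, at an adjusted p below 0.05 over all 13022 genes (edgeR's quasi-likelihood test). Change was wide across the transcriptome, and 41.3% of all tested genes were called higher and 40.9% lower. The 66 are 85.7% of the tested mitochondrial ribosomal protein genes, and the 5 are 6.49%. Their median log2 fold change was 0.63, or 1.54-fold, against a median of -0.001 over all tested genes. Without knockout replicate 3, 64 were higher, 4 were lower and the median was 0.61, with 40.5% and 40.3% of all genes called in those directions. Without knockout replicate 1, 3 in place of 5 were lower, 2 of them in the large subunit in place of 4. The share of higher calls depends on the scaling. On log2(TPM + 1), 31.7% of all tested genes were called higher and 50.7% lower, with 59 and 9 of the 77 (limma-trend). These are levels within bulk RNA, in which more of a cell type and more RNA per cell cannot be told apart.

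The large and small subunits gave like counts. Among the 48 tested Mrpl genes, 40 were higher, 4 lower and 4 not called, with a median log2 fold change of 0.60. Among the 29 Mrps genes, 26 were higher, 1 lower and 2 not called, with a median of 0.65. With subunits taken from the solved structures, the medians were 0.63 for the large and 0.58 for the small subunit, so the order of the subunits turned. No test of the difference between subunits was made. Without knockout replicate 3, 39 Mrpl genes were higher and 3 lower, and 25 Mrps genes were higher and 1 lower. In 64 of the 77 genes every knockout library lay above every wild-type library, and in 5 every knockout library lay below, against 41.7% and 41.4% of all tested genes. These were 64 and 4 without knockout replicate 3, against 43.1% in each direction.

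**Figure D1:**
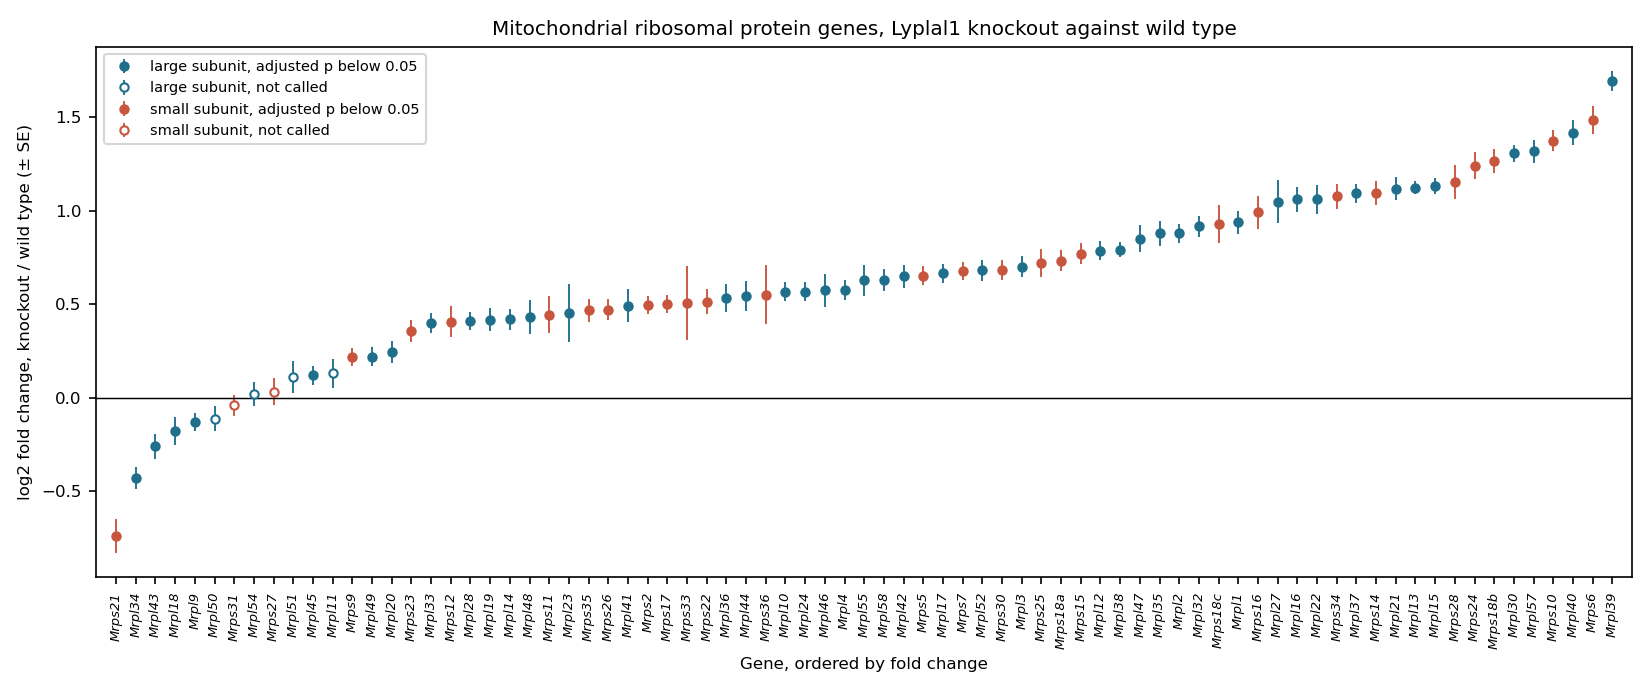
Log2 fold change of each of the 77 tested genes, knockout over wild type (points, with SE from the edgeR fit), ordered by size and coloured by the subunit in the gene name, with open points for genes that did not pass the test. The values run from -0.74 for Mrps21 to 1.69 for Mrpl39, and the middle 50% of genes lie between 0.42 and 0.94.

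The rises were mostly of moderate size. Of the 77 tested genes, 39 (50.6%) were called and over 1.5-fold higher and 18 (23.4%) over 2-fold higher, against 23.2% and 12.4% of all tested genes. Only Mrps21 among the 5 lower genes was over 1.5-fold lower, against 24.9% of all tested genes, and none of the 77 was over 2-fold lower, against 15.6%. The numbers over 1.5-fold and 2-fold higher were 39 and 16 without knockout replicate 3. The 10th and 90th percentiles of the log2 fold change were 0.03 and 1.19 for the 77 genes and -1.44 and 1.13 for all tested genes.

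**Figure D2:**
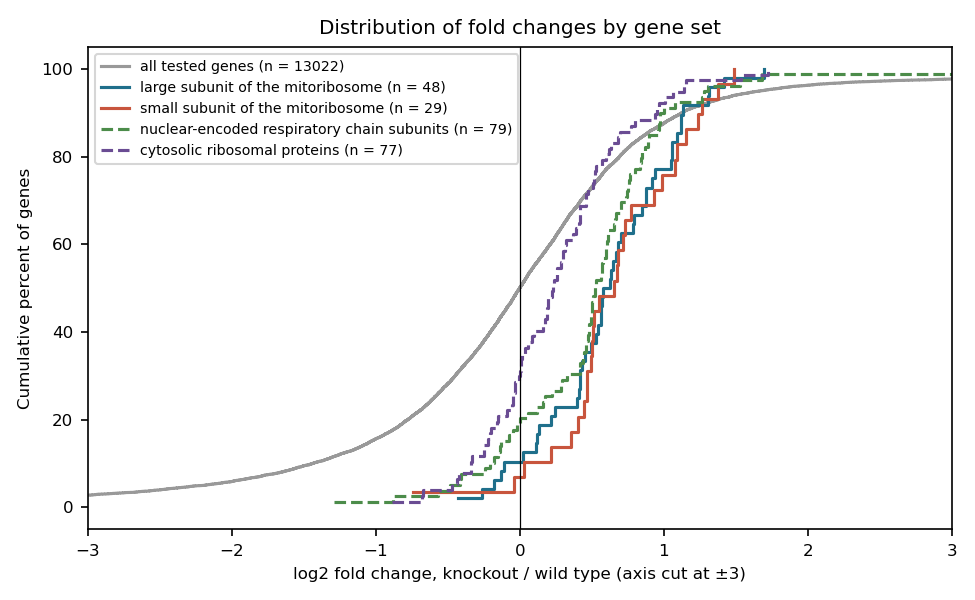
Cumulative percent of genes (y axis) by log2 fold change, knockout over wild type (x axis, shown from -3 to 3), for all tested genes, both mitoribosomal subunits, nuclear-encoded respiratory chain subunits and cytosolic ribosomal proteins. The curves of both mitoribosomal subunits cross 50% at medians of 0.60 and 0.65, to the right of the curve of all tested genes, which crosses it at -0.001.

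The promoters of the 5 genes that rose most and the 2 that fell most are shown here, whether or not they hold a motif, because short sequence elements shared by genes of mitochondrial biogenesis can be set beside the direction of change. RefSeq windows on GRCm38.p6, from 250 bases before to 50 after the start, were matched for 69 of the 78 genes. The letters searched, on both strands, were CCGGAAG for ETS factors such as GABP, GCATGCGC for NRF1, AAGATGGCG for YY1, CACGTG for the E-box bound by MYC and others, and GAAA, any pair of bases and GAAA again for the interferon-stimulated response element. NRF1 and GABP are known activators of nuclear genes for mitochondrial proteins. Capitals mark matches to the first 3 of these motifs, and where the letters overlap on the opposite strands they form 1 longer run. CTTCCGG is the ETS motif read on the other strand.
Mrpl39: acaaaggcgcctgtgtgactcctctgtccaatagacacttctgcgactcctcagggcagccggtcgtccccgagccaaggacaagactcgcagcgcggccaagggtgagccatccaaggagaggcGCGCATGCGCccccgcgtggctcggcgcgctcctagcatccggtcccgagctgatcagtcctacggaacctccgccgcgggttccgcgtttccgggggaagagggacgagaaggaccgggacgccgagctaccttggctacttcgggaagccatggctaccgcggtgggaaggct
Mrps6: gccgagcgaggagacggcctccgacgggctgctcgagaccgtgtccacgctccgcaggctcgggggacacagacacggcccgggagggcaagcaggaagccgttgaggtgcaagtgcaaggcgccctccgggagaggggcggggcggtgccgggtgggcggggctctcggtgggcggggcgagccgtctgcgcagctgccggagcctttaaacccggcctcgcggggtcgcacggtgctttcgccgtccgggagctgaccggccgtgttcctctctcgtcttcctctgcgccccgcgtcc
Mrpl40: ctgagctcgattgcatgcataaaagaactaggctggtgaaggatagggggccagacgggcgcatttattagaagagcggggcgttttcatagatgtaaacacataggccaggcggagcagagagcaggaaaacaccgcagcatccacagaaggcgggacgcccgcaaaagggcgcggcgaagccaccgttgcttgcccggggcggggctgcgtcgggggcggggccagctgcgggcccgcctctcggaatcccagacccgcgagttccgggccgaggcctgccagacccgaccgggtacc
Mrps10: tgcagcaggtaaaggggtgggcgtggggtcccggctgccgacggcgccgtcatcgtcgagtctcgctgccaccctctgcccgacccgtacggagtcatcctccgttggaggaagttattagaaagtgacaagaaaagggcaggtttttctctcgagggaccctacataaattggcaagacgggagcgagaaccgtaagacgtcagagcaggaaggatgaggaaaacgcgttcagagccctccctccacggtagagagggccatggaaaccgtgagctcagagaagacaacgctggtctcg
Mrpl57: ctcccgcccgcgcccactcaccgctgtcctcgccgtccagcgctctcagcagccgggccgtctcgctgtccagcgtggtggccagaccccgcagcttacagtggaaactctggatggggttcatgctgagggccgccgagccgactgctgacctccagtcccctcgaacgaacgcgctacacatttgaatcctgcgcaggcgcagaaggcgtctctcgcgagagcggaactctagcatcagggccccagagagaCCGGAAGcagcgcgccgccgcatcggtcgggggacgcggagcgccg
Mrps21: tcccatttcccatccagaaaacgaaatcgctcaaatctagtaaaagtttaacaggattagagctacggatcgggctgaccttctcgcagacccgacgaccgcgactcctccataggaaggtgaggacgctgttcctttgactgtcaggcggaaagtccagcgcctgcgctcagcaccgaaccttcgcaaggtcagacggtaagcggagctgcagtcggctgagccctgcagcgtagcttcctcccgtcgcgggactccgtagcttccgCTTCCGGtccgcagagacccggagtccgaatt
Mrpl34: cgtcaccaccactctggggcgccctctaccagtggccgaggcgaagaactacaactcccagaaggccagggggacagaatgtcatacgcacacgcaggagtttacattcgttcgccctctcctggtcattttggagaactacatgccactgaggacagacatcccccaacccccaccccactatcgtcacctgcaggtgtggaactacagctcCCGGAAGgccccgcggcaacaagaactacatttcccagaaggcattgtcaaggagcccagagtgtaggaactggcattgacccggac
The windows lie at chr16:84735195-84735494 (minus strand) for Mrpl39, chr16:92058086-92058385 (plus strand) for Mrps6, chr16:18876588-18876887 (minus strand) for Mrpl40, chr17:47368947-47369246 (plus strand) for Mrps10, chr14:57825989-57826288 (plus strand) for Mrpl57, chr3:95871465-95871764 (minus strand) for Mrps21 and chr8:71464676-71464975 (plus strand) for Mrpl34, each printed 5′ to 3′ along its gene. The first 5 belong to genes that rose, in order of the rise, and the last 2 to the genes that fell most. The window of Mrpl39 holds the NRF1 letters and that of Mrpl57 the ETS letters, whereas those of Mrps6, Mrpl40 and Mrps10 hold none of the motifs searched. Windows follow RefSeq starts, which can differ from the GENCODE starts used for gene positions and neighbours. Those of Mrpl39 and Mrps10 lie wholly inside the GENCODE genes, past their starts at 84735742 and 47368887. For both, the sequence before the GENCODE start was not searched. The ETS letters stand in the windows of both genes that fell, and that of Mrps21 also holds the interferon element, which is not in capitals.

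The ETS letters were found in 26 of the 69 promoters, or 37.7%, against 21.2% of the 9432 tested genes in the table and 9.93% of all 27025. Where a gene had several windows, a match in any of them counted, here and in the shares below. The YY1 letters stood in 8 promoters, or 11.6%, against 3.72% of tested genes, and the NRF1 letters in 8, against 6.26%. At least 1 of these 3 motifs was present in 36 promoters, or 52.2%, against 28.5% of tested genes. The E-box stood in 5 promoters, or 7.25%, against 11.9% of tested genes, and the interferon element in 3, or 4.35%, against 3.83%. The median log2 fold change was 0.51 with and 0.63 without the ETS letters, 0.79 and 0.57 for NRF1 and 0.69 and 0.57 for YY1. Of the 5 genes that were lower, 4 had the ETS letters, as had 19 of the 58 higher genes with a promoter in the table. These are matches of letters, counted without a test.

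Among large subunit genes, Mrpl39 rose most. Its protein is a mitochondrion-specific component at the surface of the large subunit. It lies at chr16:84717576-84735742, minus strand, and shares no exon positions with another gene. It gave 21.03, 20.9 and 21.4 CPM among wild-type libraries against 69.1, 69.04 and 66.5 CPM among knockout libraries. The knockout libraries stood together well above the wild-type libraries, 3.23-fold higher (log2 fold change 1.69 ± 0.054 SE, adjusted p = 1.63e-20, edgeR). Of all tested genes, 95.1% had a lower log2 fold change. Several genes of the central protuberance, the crest of the large subunit that faces the small one, were measured. Mrpl40 gave 17.8, 16.9 and 19.9 CPM among wild-type libraries against 45.3, 51.1 and 49.4 CPM among knockout libraries, with no overlap and a 2.67-fold rise (adjusted p = 1.14e-16, edgeR). Mrpl38, Mrpl46 and Mrpl48 of the same structure rose 1.73-, 1.49- and 1.35-fold. Mrpl46 shares 12.2% of its exon positions with Mrps11. Mrpl48 has an annotated pseudogene, and its call (adjusted p = 0.000113, edgeR) was lost in TPM, with log2 fold changes of 0.19 and 0.22 (adjusted p = 0.0793 and 0.0937 by limma-trend, with pseudocounts of 1 and 0.1) in place of 0.43. Mrpl18, a protein of bacterial ancestry in the same region, was 1 of the 5 lower genes.

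The other large rises in this subunit were in Mrpl57, Mrpl30 and Mrpl15. Mrpl57, a small mitochondrion-specific protein, gave 22.99, 22.9 and 24.7 CPM among wild-type libraries against 55.6, 55.9 and 64.3 CPM among knockout libraries. Knockout replicate 3 was the highest, and all 3 knockout libraries lay far above the wild-type range. Mrpl30, of bacterial ancestry, gave 39.4, 40.2 and 42.9 CPM among wild-type libraries against 102, 101 and 101 CPM among knockout libraries, with the knockout libraries within 1 CPM of each other. Mrpl15, of bacterial ancestry, gave 48.4, 48.5 and 49.7 CPM among wild-type libraries against 105, 112 and 105 CPM among knockout libraries. The folds were 2.49, 2.48 and 2.19, with adjusted p of 1.83e-16, 1.54e-19 and 1.84e-18 (edgeR). Mrpl13, of bacterial ancestry, had the smallest adjusted p of all 77 genes (6.46e-21, edgeR), with 131, 136 and 134 CPM among wild-type libraries against 290.1, 289.7 and 296 CPM among knockout libraries and a 2.18-fold rise. It shares 4.16% of its exon positions with Mtbp.

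The catalytic centre and the exit tunnel are lined by rRNA and by proteins of bacterial ancestry. Mrpl2, a core protein near the peptidyl transferase centre, gave 49.5, 47.6 and 49.4 CPM among wild-type libraries against 85.7, 86.6 and 97.5 CPM among knockout libraries and rose 1.84-fold. Mrpl3 and Mrpl4, the counterparts of bacterial proteins of the same numbers, rose 1.63- and 1.49-fold. Mrpl16 and Mrpl27, whose bacterial counterparts reach towards the catalytic centre, rose 2.09- and 2.07-fold. Of the tunnel proteins, Mrpl22, Mrpl23 and Mrpl24 rose 2.09-, 1.37- and 1.48-fold. Adjusted p ran from 9.29e-15 for Mrpl2 to 0.01 for Mrpl23 (edgeR). Mrpl24 shares 26.3% of its exon positions with Rrnad1. Mrpl23 is the least certain of them. It gave 63, 49 and 62 counts among wild-type libraries against 62, 81 and 70 counts among knockout libraries, it has an annotated pseudogene, and its call was lost in DESeq2 (adjusted p = 0.0542), without wild-type replicate 2 (0.0713) and without knockout replicate 2 (0.0654, edgeR).

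The stalk of the large subunit recruits translation factors. Mrpl12, the stalk protein that is also known to bind the mitochondrial RNA polymerase, gave 57.6, 61.5 and 66.04 CPM among wild-type libraries against 101, 106 and 112 CPM among knockout libraries. It was 1.72-fold higher with no overlap between the groups (log2 fold change 0.79 ± 0.050 SE, adjusted p = 1.1e-13, edgeR). Mrpl10, which anchors it, gave 63.9, 57.8 and 64.7 CPM among wild-type libraries against 88.8, 89.7 and 97.7 CPM among knockout libraries and was 1.48-fold higher (adjusted p = 5.84e-11, edgeR). Mrpl11 at the stalk base gave 22.4, 25.7 and 20.01 CPM among wild-type libraries against 23.9, 24.4 and 26.2 CPM among knockout libraries, with overlapping groups. Its log2 fold change of 0.13 ± 0.078 SE did not pass the test (adjusted p = 0.124, edgeR), passed it without wild-type replicate 2 (0.23, adjusted p = 0.0135) and turned to -0.07 in TPM. Within the stalk, then, the call was made for 2 of the 3 genes. Mrpl12 shares 13.1% and Mrpl10 14.1% of exon positions with gene models of provisional name.

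Mrpl45, which holds the ribosome to the inner mitochondrial membrane, gave 67.3, 68.04 and 74.7 CPM among wild-type libraries against 77.3, 71.7 and 79.2 CPM among knockout libraries. The groups overlapped, and its log2 fold change of 0.12 ± 0.049 SE was barely past the threshold (adjusted p = 0.0289, edgeR). With upper-quartile factors, library totals or TPM it turned to between -0.09 and -0.01, and it was no longer called in DESeq2 (adjusted p = 0.0816). Dropping any 1 of 4 libraries, wild-type replicates 1 and 2 and knockout replicates 1 and 3, ended the call as well (adjusted p between 0.0629 and 0.165, edgeR). Mrpl58, a peptidyl-tRNA hydrolase that releases stalled ribosomes and is built into the large subunit, gave 25.1, 24.8 and 24.2 CPM among wild-type libraries against 36.3, 38.7 and 39.6 CPM among knockout libraries. It rose 1.55-fold (adjusted p = 2.75e-10, edgeR), and the groups were far apart. Mrps30 and Mrps18a, which sit in the large subunit despite their names, rose 1.60- and 1.66-fold, within the range of the Mrpl genes.

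**Figure D3:**
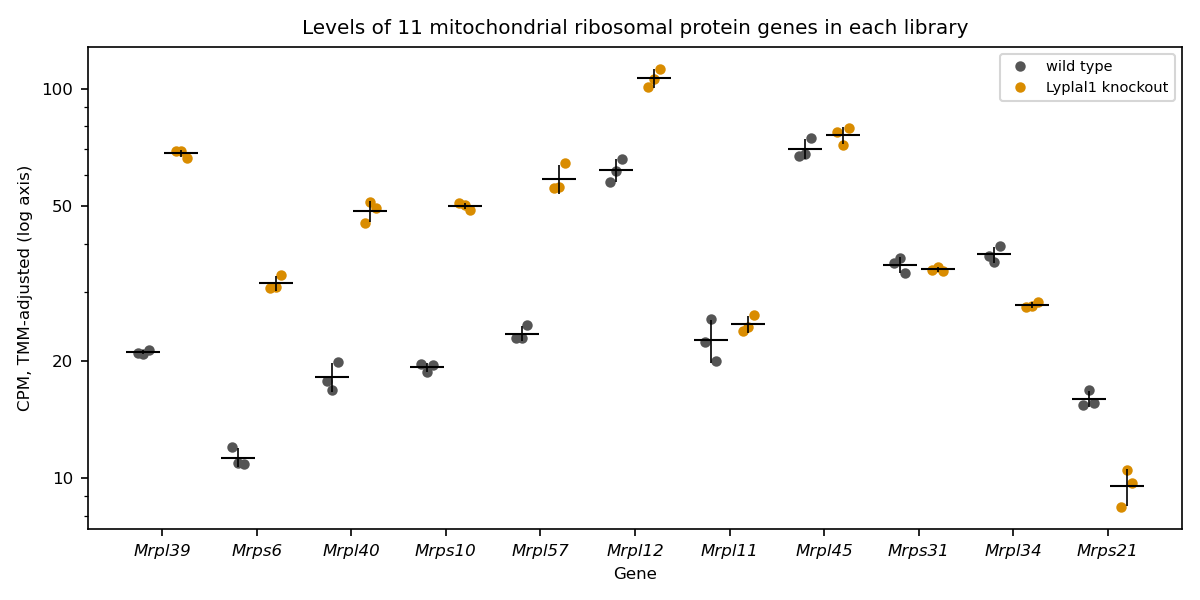
TMM-adjusted CPM (log axis) of 11 genes in each library, with points for libraries and bars for the mean ± SD of 3 libraries in each group. Mrpl39, Mrps6, Mrpl40, Mrps10, Mrpl57 and Mrpl12 were higher in all 3 knockout libraries, Mrpl11, Mrpl45 and Mrps31 overlapped, and Mrpl34 and Mrps21 were lower in all 3.

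In the small subunit, the genes that rose most were Mrps6, Mrps10, Mrps18b and Mrps24. Mrps6, of bacterial ancestry, gave 12.1, 10.98 and 10.9 CPM among wild-type libraries against 30.8, 30.96 and 33.4 CPM among knockout libraries, a 2.80-fold rise (log2 fold change 1.49 ± 0.074 SE, adjusted p = 2.78e-16, edgeR). It lies at chr16:92058270-92112227, plus strand, and shares 19.9% of its exon positions with other genes, Slc5a3 among them, so part of its count is uncertain. Mrps10, of bacterial ancestry, gave 19.6, 18.7 and 19.5 CPM among wild-type libraries against 50.8, 50.4 and 48.95 CPM among knockout libraries. It shares no exon positions, and its groups were tight and far apart at 2.59-fold (adjusted p = 8.85e-18, edgeR).

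The related genes Mrps18a, Mrps18b and Mrps18c encode relatives of the same bacterial protein that occupy different places in the ribosome. Mrps18b gave 18.5, 17.5 and 19.1 CPM among wild-type libraries against 43.1, 42.2 and 46.9 CPM among knockout libraries. Mrps18c gave 6.47, 6.89 and 7.08 CPM among wild-type libraries against 11.6, 13.1 and 14.4 CPM among knockout libraries. Mrps18a gave 32.9, 30.9 and 33.7 CPM among wild-type libraries against 51.4, 53.7 and 56.8 CPM among knockout libraries. All 3 were higher in every knockout library, by 2.40-, 1.91- and 1.66-fold, with adjusted p of 4.6e-16, 4.59e-09 and 3.04e-12 (edgeR). Mrps18b shares 30.5% and Mrps18c 23.2% of exon positions with gene models of provisional name, and the strand setting of the counting is not given in the sources used here. Whether the 3 paralogues differed in their change was not tested.

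Mrps24, the counterpart of a bacterial protein at the entrance for the message, gave 33.9, 31.4 and 33.3 CPM among wild-type libraries against 72.1, 72.6 and 88.2 CPM among knockout libraries. It rose 2.36-fold (adjusted p = 3.83e-11, edgeR), with knockout replicate 3 the highest, and shares 15.4% of its exon positions with Urgcp. Mrps28, of bacterial ancestry, gave 11.3, 11.3 and 10.4 CPM among wild-type libraries against 21.1, 24.6 and 27.9 CPM among knockout libraries and rose 2.22-fold (adjusted p = 1.7e-11, edgeR), again with knockout replicate 3 the highest. Mrps12, which lies at the decoding centre, gave 15.6, 13.4 and 14.8 CPM among wild-type libraries against 17.6, 19.2 and 21.1 CPM among knockout libraries. Its rise of 1.32-fold was smaller but the groups did not overlap (adjusted p = 8.32e-05, edgeR). Mrps22 and Mrps34, both known from human mitochondrial disease, rose 1.43- and 2.11-fold, though Mrps34 shares 77.8% of its exon positions with Mapk8ip3 and Nme3, so much of its count is uncertain. Mrps36, the gene now placed in the 2-oxoglutarate dehydrogenase complex, gave 56, 72 and 52 counts among wild-type libraries against 71, 71 and 94 counts among knockout libraries. It was 1.47-fold higher (adjusted p = 0.00272, edgeR), and at these counts its level is less precise.

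The genes that fell were few. Mrps21, of bacterial ancestry in the small subunit, fell most and gave 277, 301 and 278 counts among wild-type libraries against 135, 168 and 155 counts among knockout libraries. In CPM these were 15.5, 16.9 and 15.6 against 8.44, 10.5 and 9.75, with no overlap. It was 1.67-fold lower (log2 fold change -0.74 ± 0.092 SE, adjusted p = 3.71e-08, edgeR). It lies at chr3:95862634-95871519, minus strand, and shares no exon positions. Mrpl34, of bacterial ancestry in the large subunit, lies at chr8:71464959-71465747, plus strand, and gave 37.2, 35.98 and 39.5 CPM among wild-type libraries against 27.6, 27.7 and 28.4 CPM among knockout libraries. Here too every knockout library lay below every wild-type library, and the gene was 1.35-fold lower (log2 fold change -0.43 ± 0.059 SE, adjusted p = 2.37e-07, edgeR).

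The other 3 falls were small. Mrpl43, a mitochondrion-specific protein whose gene shares 33.4% of its exon positions with Twnk, the mitochondrial helicase gene, gave 24.4, 25.5 and 26.4 CPM among wild-type libraries against 21.6, 21.9 and 20.1 CPM among knockout libraries, a log2 fold change of -0.26 (adjusted p = 0.000917, edgeR). Mrpl18 gave 19.4, 22.5 and 21.8 CPM among wild-type libraries against 18.9, 19.4 and 17.9 CPM among knockout libraries, a log2 fold change of -0.18 (adjusted p = 0.0292, edgeR). It was not called in DESeq2 (adjusted p = 0.0814) or without each of wild-type replicates 2 and 3 and knockout replicates 1 and 3 (adjusted p 0.0563 to 0.136), and it shares 10.1% of its exon positions with Tcp1. Mrpl9, of bacterial ancestry, gave 63.9, 62.3 and 62.1 CPM among wild-type libraries against 55.6, 57.2 and 59.2 CPM among knockout libraries, a log2 fold change of -0.13 (adjusted p = 0.0116, edgeR), and the call was lost without knockout replicate 1 (adjusted p = 0.0706). None of these 3 passed a test against a 1.2-fold change, whereas Mrps21 and Mrpl34 did.

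Of the 6 genes that were not called, 5 are mitochondrion-specific. Mrpl50 gave 28.3, 27.4 and 29.6 CPM among wild-type libraries against 27.8, 27.6 and 23.6 CPM among knockout libraries, a log2 fold change of -0.11 ± 0.068 SE. Mrps31 gave 35.7, 36.9 and 33.6 CPM among wild-type libraries against 34.3, 34.96 and 33.98 CPM among knockout libraries, a log2 fold change of -0.04 ± 0.057 SE. These 2 had negative values, and with upper-quartile factors, library totals or TPM they passed as lower (adjusted p 0.00138 to 0.0074). Mrpl54, Mrps27 and Mrpl51 had log2 fold changes of 0.02 ± 0.065, 0.03 ± 0.071 and 0.11 ± 0.085 SE, with means of 27.95 ± 0.867 CPM (wild type) and 28.4 ± 2.10 CPM (knockout), 24.4 ± 2.07 CPM (wild type) and 24.99 ± 1.21 CPM (knockout) and 14.2 ± 1.15 CPM (wild type) and 15.3 ± 1.02 CPM (knockout) in that order. Mrps27 shares 24.2% of its exon positions with a gene model of provisional name. Their groups overlapped, and the sign of all 3 turned with upper-quartile factors, library totals and TPM. In TPM, Mrpl54 and Mrps27 passed as lower (limma-trend on log2(TPM + 1), adjusted p = 0.00553 and 0.0284). The other is Mrpl11 of the stalk. The adjusted p of the 6 ran from 0.124 to 0.768 (edgeR). Mrpl53 was removed by the filter, with 2 counts over the wild-type and 1 over the knockout libraries. Its exons overlap other gene models over 88.0% of their length, and its level cannot be read from these counts.

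Levels of the different genes were set side by side on a scale per gene length (the deposited TPM). The annotated exon length merges all transcripts of a gene and need not be that of the message present. The order below therefore depends on annotated length as well as on counts. Mrpl13, with 7936 exon bases, ranked 14 by mean TPM although it had 134 CPM in wild type. Mrpl34, with 607 exon bases, ranked 2 at 37.6 CPM in wild type. Mrpl48, among the lowest, has 8152 exon bases. Mrpl2, Mrpl34 and Mrpl38 had the highest mean TPM over the 6 libraries. Mrpl2 was at 178 ± 3.56 TPM (wild type) and 283 ± 15.8 TPM (knockout) and Mrpl38 at 172 ± 2.11 TPM (wild type) and 257 ± 8 TPM (knockout) (mean ± SD, n = 3). Mrpl34 was the highest of all in wild type, at 264 ± 11.1 TPM (wild type) and 169.5 ± 0.698 TPM (knockout), so the order of these 3 turned between the groups. Mrpl28 was at 199 ± 3.44 TPM (wild type) and 229 ± 15.1 TPM (knockout) and Mrpl12 at 172 ± 11 TPM (wild type) and 256 ± 9.99 TPM (knockout). In wild type the order was therefore Mrpl34, Mrpl28 and Mrpl2, with Mrpl38 and Mrpl12 close behind, and in knockout Mrpl2, Mrpl38 and Mrpl12, with Mrpl38 and Mrpl12 within their SD. Mrpl23, Mrpl48 and Mrps33 were the lowest of the tested genes. Mrpl23 was at 2.83 ± 0.374 TPM (wild type) and 3.36 ± 0.461 TPM (knockout), Mrpl48 at 4.81 ± 0.137 TPM (wild type) and 5.61 ± 0.259 TPM (knockout) and Mrps33 at 5.77 ± 1.11 TPM (wild type) and 7.11 ± 1.56 TPM (knockout). Mrpl48 and Mrpl23 have annotated pseudogenes. Mrps33 was called higher at 1.42-fold (adjusted p = 0.0215, edgeR) although its groups overlapped, and not in DESeq2 (adjusted p = 0.0759). Leaving out wild-type replicate 2 or 3 or knockout replicate 1 or 3 alone also ended the call for Mrps33 (adjusted p between 0.0671 and 0.0957, edgeR). Across the 78 genes the order of levels was similar in both groups, with a Spearman correlation of 0.917 between group means, a description over genes that share libraries and depth.

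**Figure D4:**
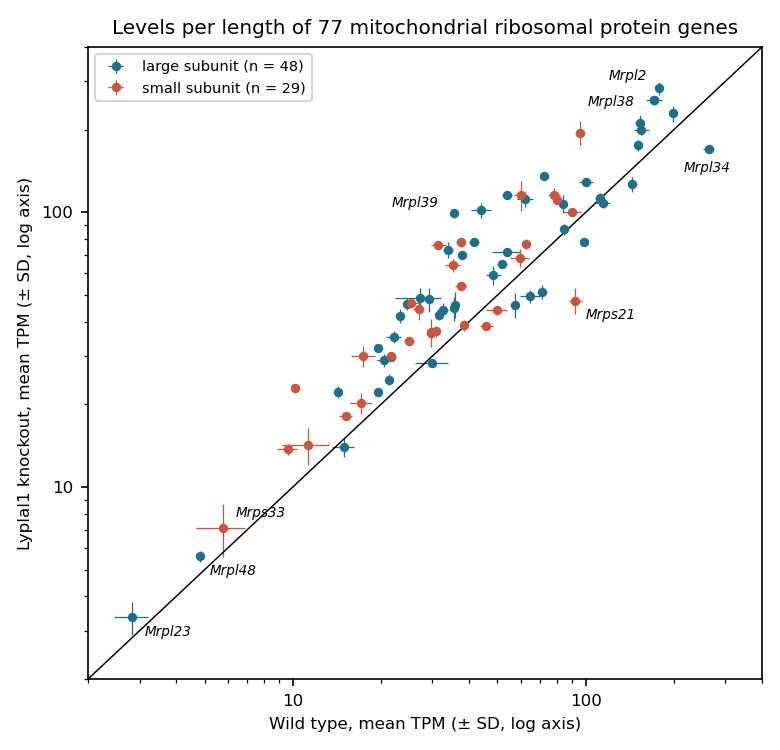
Mean TPM in knockout (y axis) against wild type (x axis) for the 77 tested genes, both axes log scaled, with SD over 3 libraries as bars, colours for the subunit in the gene name and a line of equal level. Mrpl34 and Mrps21 lie furthest below the line, other genes such as Mrpl9 and Mrpl54 also lie below it, and Mrpl39 lies furthest above it.

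Summed over all 78 genes, the mitochondrial ribosomal proteins took 0.244%, 0.245% and 0.248% of counts among wild-type libraries, against 0.352%, 0.354% and 0.366% among knockout libraries. The groups did not overlap, and knockout replicate 3 was the highest. Summed TPM of the large subunit genes was 3341 ± 30.7 in wild type and 4268 ± 77.5 in knockout, and that of the small subunit genes 1169 ± 12.2 and 1614 ± 47.9 (mean ± SD, n = 3). The large subunit genes held more TPM than the small in every library. These sums run over 49 and 29 genes and depend on annotated length, so which is larger is partly set by the lists. The ratio of the large to the small sum was 2.81, 2.85 and 2.91 among wild-type libraries. Among knockout libraries it was 2.71, 2.60 and 2.63. In TPM the ratio was therefore lower in every knockout library. In summed CPM, which weights long genes more, it went the other way, from 2.33 ± 0.0091 to 2.38 ± 0.023, and by the median gene, at 1.39 ± 0.16 and 1.496 ± 0.069, the groups overlapped. The direction of the ratio thus depended on the scale.

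Proteins of bacterial ancestry and mitochondrion-specific proteins were both mostly higher. Of the 46 of bacterial ancestry, 41 were higher, 4 lower and 1 not called, with a median log2 fold change of 0.67. Of the 30 tested mitochondrion-specific genes, 24 were higher, 1 lower and 5 not called, with a median of 0.53. Mrps18a and Mrps18b, though relatives of a bacterial protein, were counted here as mitochondrion-specific, and Mrps18c as of bacterial ancestry. In the small subunit by structure the medians were 0.72 for 16 genes of bacterial ancestry and 0.49 for 10 others, and in the large subunit 0.65 for 30 and 0.60 for 20. The difference between the classes was not tested. Without knockout replicate 3, 41 genes of bacterial ancestry were higher and 3 lower, and 22 mitochondrion-specific genes were higher and 1 lower. Genes that share no exon positions and have no named pseudogene kept a like profile, with 37 of 43 higher, 2 lower and a median of 0.65, against 29 of 34, 3 and 0.57 for the rest. Of the 43, 35 were higher and 2 lower without knockout replicate 3.

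Exon length and level were also set beside the change. The median log2 fold change of all tested genes was 0.16 in the quartile of shortest exon length, then 0.06, -0.04 and -0.12. Of the 77 mitochondrial ribosomal protein genes, 38 fell in the shortest quartile. Their medians by quartile, from short to long, were 0.56, 0.65, 0.50 and 0.68, over 38, 19, 9 and 11 genes. All 9 and 11 genes of the longer quartiles were higher, and the 5 lower genes were all in the shorter ones. By level, the quartile medians of all tested genes ran from -0.36 for the lowest CPM to 0.10 for the highest, and 31 and 40 of the 77 genes stood in the middle quartiles, with medians of 0.63 and 0.61.

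Many mitochondrial ribosomal protein genes begin close to another gene on the opposite strand. Such a neighbour is called divergent here even where the genes overlap at their starts. With its start within 500 bases, it was annotated for 25 of the 78 genes, or 32.1%, against 14.7% of the 11354 tested protein-coding genes. In 24 pairs both genes were tested, with Mrpl46 and Mrps11, which are each other's neighbour at 412 bases, counted from both sides. Of the 20 pairs whose mitochondrial ribosomal protein gene was higher, the neighbour was higher in 11, lower in 6 and not called in 3 (edgeR, adjusted p below 0.05). Over all tested genes 41.3% were higher and 40.9% lower, and no difference of the neighbours from those shares was tested. With knockout replicate 3 left out, the neighbour was higher in 10, lower in 6 and not called in 4. The median log2 fold change over the 24 pairs was 0.78 for the mitochondrial ribosomal protein genes and 0.20 for the neighbours. Mrpl30 and Mitd1, a gene of cell division, start 66 bases apart and rose with log2 fold changes of 1.31 and 2.67. Mrpl36 and Ndufs6, a subunit of respiratory complex I, start 29 bases apart and rose by 0.53 and 0.48. Mrpl36 shares 2.58% of its exon positions with Ndufs6. The pairs did not always share direction. Mrps18b was higher at 1.26 and Ppp1r10, a regulatory subunit of protein phosphatase 1 that starts 45 bases away, was lower at -2.999. Mrpl57 was higher at 1.32 and Ska3, a kinetochore gene 49 bases away, lower at -0.92. Mrpl27 was higher at 1.05 and Eme1, a DNA repair endonuclease subunit 197 bases away, lower at -0.98. Mrpl27 shares 7.61% of its exon positions with Eme1.

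**Figure D5:**
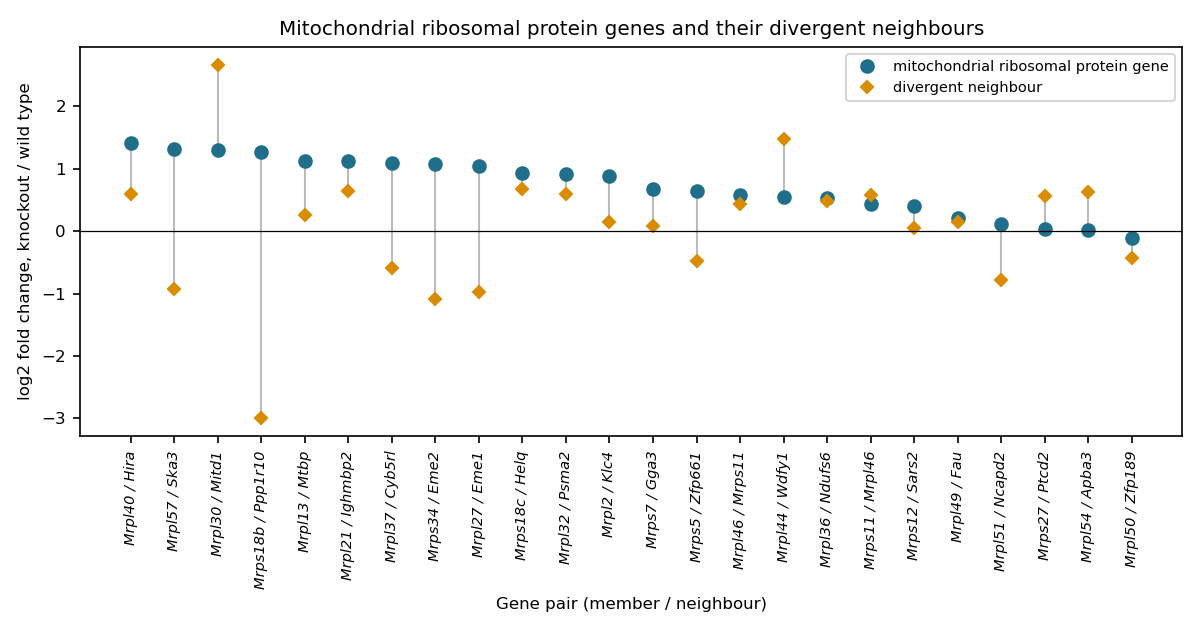
Log2 fold change, knockout over wild type, of the mitochondrial ribosomal protein gene (circles) and its divergent neighbour (diamonds) in 24 pairs, joined by lines and ordered by the circles. The circles lie between -0.11 and 1.42, whereas the diamonds run from -2.999 for Ppp1r10 to 2.67 for Mitd1.

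The ribosome also holds proteins whose genes have other names, and 5 of these were measured. Dap3, Chchd1 and Aurkaip1 of the small subunit rose, from 98.6 to 145 CPM, 27.8 to 45.96 CPM and 50.2 to 81.4 CPM, with log2 fold changes of 0.56 ± 0.038, 0.72 ± 0.055 and 0.70 ± 0.064 SE. Ptcd3 of the small subunit was at 68.9 ± 4.29 CPM (wild type) and 68.5 ± 4.65 CPM (knockout), with overlapping groups and adjusted p = 0.877 (edgeR). Gadd45gip1 of the large subunit was at 20.2 ± 1.14 CPM (wild type) and 22.7 ± 2.18 CPM (knockout), with adjusted p = 0.0439 (edgeR), and its sign turned in TPM. Its call ended when any 1 of wild-type replicates 1 and 3 and knockout replicates 2 and 3 was dropped (adjusted p between 0.0557 and 0.212, edgeR). The ribosomal RNAs moved apart. The small subunit RNA mt-Rnr1 gave 5886, 6269 and 5943 counts among wild-type libraries against 17719, 19028 and 17660 counts among knockout libraries, a 3.36-fold rise in CPM. The large subunit RNA mt-Rnr2 gave 24045, 26330 and 24144 counts among wild-type libraries against 17352, 17456 and 15595 counts among knockout libraries, a 1.32-fold fall (adjusted p = 6.49e-25 and 6.92e-08, edgeR). How the libraries treated ribosomal RNA is not given in the sources used here.

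Assembly factors, which modify the ribosomal RNAs and help the subunits form, went both ways. Of 29 tested, 19 were higher (65.5%), 7 lower (24.1%) and 3 not called, with a median log2 fold change of 0.27, against 41.3% higher and 40.9% lower over all tested genes. C1qbp, a matrix chaperone-like protein, was 1.95-fold higher, the GTPase Mtg1 2.43-fold, the RNA helicase Dhx30 1.46-fold and the pseudouridine synthase family member Rpusd3 3.76-fold. Fastkd5, an RNA processing protein, was 6.58-fold lower and the RNA helicase Ddx28 1.30-fold lower. Fastkd5 gave only 48, 58 and 58 counts among wild-type libraries against 8, 10 and 4 counts among knockout libraries. At these counts its fold is less precise. Of 17 tested translation factors, 7 were higher (41.2%, near the share of all tested genes), 5 lower (29.4%) and 5 not called, with a median of -0.03, and Pdf was removed by the filter. Among them the elongation factor Tsfm, the ribosome recycling genes Gfm2 and Mrrf and the message-stabilising Lrpprc rose 1.86-, 1.76-, 1.49- and 1.91-fold. The initiation factor Mtif2 and the release factor Mtrf1l fell, and were 1.33- and 1.52-fold lower. Of 20 genes for charging mitochondrial tRNAs, 11 were higher (55%) and 6 lower (30%), with a median of 0.15. Tars2, Fars2 and Yars2, synthetases for threonine, phenylalanine and tyrosine, and the amidotransferase subunit Qrsl1 rose 2.16-, 1.88-, 1.58- and 1.84-fold. Cars2, the synthetase for cysteine, was 1.42-fold lower. Among the tested genes named from these 3 lists, the adjusted p was at most 2.44e-05 (edgeR). The counts of these 3 lists were the same without knockout replicate 3, except that 4 translation factors were lower in place of 5. They depended more on the scaling. With upper-quartile factors, library totals or TPM, 7 tRNA charging genes were higher in place of 11 and 9 translation factors lower in place of 5, and with TPM 12 assembly factors were higher in place of 19.

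Other genes were set beside these. Of 79 tested nuclear-encoded respiratory chain and ATP synthase subunits, 60 were higher (75.9%), 9 lower and 10 not called, with a median log2 fold change of 0.52. Of 77 cytosolic ribosomal proteins, 43 were higher (55.8%), 13 lower and 21 not called, with a median of 0.23. Of the 13 messages of mitochondrial DNA, 6 were listed at 0 in every library, and the 7 that passed the filter were all lower, with a median of -2.41, and took 1.66% ± 0.045 of counts in wild-type and 0.323% ± 0.016 in knockout libraries (mean ± SD, n = 3). Without knockout replicate 3, 62 respiratory chain subunits were higher and 12 lower, 42 cytosolic ribosomal proteins were higher and 11 lower, and the same count of 7 messages was lower. Most nuclear genes for the ribosome were thus higher in the libraries in which these messages were lower.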

How the data were processed

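RNA of 6 libraries was measured. For 55487 genes the authors deposited raw counts and TPM (levels per gene length), in tables of the whole series that held the same values as all 12 library files. Per the labels' protocols, RNA was harvested with Trizol and made into DNBseq libraries. STAR 2.7.8a, featureCounts 2.0.1 and GRCm38 are named in the submitters' processing notes, with no settings. How strand and reads with several matches were treated is not given in the sources used here. Of the identifiers, 55227 had an entry in GENCODE M21.

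Counts were filtered with edgeR's filterByExpr and fitted with its quasi-likelihood F test (robust, TMM factors, two-sided, all 6 libraries, no covariate), with Benjamini-Hochberg adjustment over 13022 genes and a threshold of 0.05. Each standard error is the fitted log2 change over the root of its F statistic. CPM are on TMM-adjusted library sizes. The deposited TPM were used for levels between genes and, as an alternative, on the scales log2(TPM + 1) and log2(TPM + 0.1) with limma-trend. On simulated counts for 12611 genes, the test recovered 99% of 1.5-fold and 100% of 2-fold changes, with 13 false calls. In the real counts 82.3% of the 13022 genes were called in either direction. Whether the rates above hold for such wide change was not tested. Scripts ran in Python 3.11.15 and R 4.3.3, with DESeq2 1.42.0, limma 3.58.1 and edgeR 4.0.16.

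The members and lists were chosen with earlier results of these data known. Genes named in the text are the 10 largest called rises and up to 10 falls without overlap, every gene not called or removed by the filter, the 3 highest and 3 lowest by TPM, and those picked for their role. In the companion lists they are all ribosomal genes with other names, both ribosomal RNAs, and up to 4 genes with the smallest adjusted p and 2 of the opposite direction. Mrpl13, Mrpl28, Mrpl3, Mrpl4, Mrpl16, Mrpl22, Mrpl24, Mrpl27, Mrpl46, Mrps22, Mrps34 and the divergent pairs were named after their values were seen. Alternatives were other scalings, tests and filters, TPM, the replicate number as a block, other subunit assignments, and leaving out each library. Counts without knockout replicate 3 for ancestry, size of change, overlap, neighbours and lists outside the first plan were added after seeing the data.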

Additional observations from a re-analysis of the deposited data

How the results depend on the processing

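With RLE factors, DESeq2, limma-voom, a test against a 1.2-fold change, no filter, a minimum of 1 CPM in 3 libraries and the replicate block, between 60 and 66 of the 77 mitochondrial ribosomal protein genes were higher. Upper-quartile factors, library totals and TPM gave 59 or 60. These last 3 moved the median of all tested genes by -0.13, -0.14 and between -0.21 and -0.20 in log2. The split of all calls into higher and lower became 35.6% and 47.5% with upper-quartile factors, 35.4% and 47.7% with library totals, and 31.7% and 50.7% with log2(TPM + 1). The median of the 77 genes then fell to 0.49 with upper-quartile factors and with library totals, 0.41 with log2(TPM + 1) and 0.42 with log2(TPM + 0.1). That of the large subunit was 0.468, 0.465, 0.385 and 0.392, and of the small subunit 0.52, 0.52, 0.43 and 0.44. Relative to the median of all genes, the 77 stayed 0.59 to 0.68 higher under every alternative tried apart from no filter, for which this was not computed, and 69 or 70 of them lay above it. Other scaling factors move all genes by nearly the same amount, which this difference takes out. It therefore cannot show whether the change of the 77 depends on the scaling factors.

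The number of lower genes was less stable than that of higher ones. It was 5 with all settings as reported, 2 against a 1.2-fold change, 3 with no filter, 9 with either TPM setting and 3 to 5 when a library was left out. For the large subunit it was 4, then 1 against a 1.2-fold change, 2 with no filter, 3 with DESeq2, 5 with upper-quartile factors and library totals, 6 with either TPM setting, and 2 to 4 without a library. For the small subunit it was 1, then 2 with upper-quartile factors and library totals and 3 with TPM. Over both subunits, upper-quartile factors and library totals thus added Mrpl50 and Mrps31 to the lower genes, and DESeq2 no longer called Mrpl18. Leaving out a library gave medians of 0.59 to 0.67 for all the genes and 0.58 to 0.65 for the large subunit. Without genes that share exon positions or have a pseudogene, 37 of 43 were higher and 2 lower, with 22 and 1 of 26 in the large subunit and 15 of 17 higher in the small. The medians were then 0.74 for the large and 0.51 for the small subunit. The ratio of large to small subunit genes was 2.86 in wild type and 2.65 in knockout by summed TPM, 1.39 and 1.496 by median TPM, and 2.33 and 2.38 by summed CPM.

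In the companion lists, 7 tRNA charging genes were higher, in place of 11, with upper-quartile factors, library totals, TPM and the 1.2-fold test. With the same scalings 9 translation factors were lower in place of 5, and 3 against a 1.2-fold change. Assembly factors that were higher numbered 12 with TPM in place of 19, and those lower 4 against a 1.2-fold change in place of 7.

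Signs turned in genes near 0. With upper-quartile factors, library totals, log2(TPM + 1) and log2(TPM + 0.1), in that order, Mrpl11 was at -0.002, -0.005, -0.068 and -0.070, Mrpl45 at -0.014, -0.017, -0.087 and -0.088, and Mrpl51 at -0.023, -0.026, -0.090 and -0.096. Mrpl54 was at -0.112, -0.115, -0.187 and -0.188, and Mrps27 at -0.101, -0.104, -0.170 and -0.173. Gadd45gip1 was at -0.041 and -0.042 with TPM. Ptcd3 was at 0.009 with no filter. Leaving out a library gave between -0.015 and 0.088 for Mrpl54, -0.035 and 0.087 for Mrps27 and -0.041 and 0.053 for Ptcd3. Calls of Mrpl18, Mrpl9, Mrpl20, Mrpl23, Mrpl43, Mrpl45, Mrpl48, Mrpl49, Mrps9, Mrps33 and Gadd45gip1 were lost under some alternative, and Mrpl11, Mrpl50, Mrpl54, Mrps27, Mrps31 and Ptcd3 passed under some. The cause was not tested, beyond the shift of all genes given above.

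Groups share replicate numbers, and the labels do not say whether these pair the libraries. Deviations from the group means correlated at -0.0074, 0.042 and 0.013 between same-numbered libraries, against -0.038 to 0.022 between the others. Values this small do not settle whether same-numbered libraries share a culture or day. With the replicate block, 66 genes were higher and 5 lower, with a median of 0.63, and all 102 single-gene results kept their side of the threshold. Of the tested mitochondrial ribosomal protein genes, Mrps33, Mrpl23 and Mrps36 had the fewest counts, which limits the precision of their values.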
